A study of Mus musculus with 6 samples.

Results

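The genes described here are the ligands and receptors of the tumour necrosis factor (TNF) superfamily. They were taken from the deposited count table by name: protein-coding genes called Tnfsf or Tnfrsf followed by a digit, with Tnf, Lta, Ltb, Fas, Fasl, Ltbr, Cd40, Cd27, Cd70, Ngfr, Edar and Eda2r. The rule found 43 of the 54532 genes in the table, 16 ligands and 27 receptors. The study compared TM3 cells, an established mouse cell line labelled as Leydig cells of the testis, with a derivative that overexpresses A20. The control of the overexpression, labelled WT, has 3 libraries, and A20 overexpression has 3. All were grown in DMEM/F12 medium with fetal bovine and horse serum. The vector, the species of the A20 sequence, the number of clones and the independence of the cultures behind the libraries are not given in the sources used here, so p-values measure the spread between these libraries, which may be technical.

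TNF superfamily ligands are mostly trimeric membrane proteins that can be shed, and they bind receptors with cysteine-rich repeats outside the cell. Receptors with a death domain, such as Fas and TNF receptor 1, can start cell death, and most of the others recruit TRAF adaptors that switch on NF-kB. Decoy receptors bind a ligand without passing the signal on. A20, encoded by Tnfaip3, edits ubiquitin chains on the signalling complex under TNF receptor 1 and limits NF-kB.

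Total counts ran from 13841287 to 16917979 per library, and 27 to 31 of the 43 genes had a count in a library. A library without a count for a gene allows up to 0.177 to 0.217 CPM (the count scaled to a common library total), the level of 3 counts, which covers counting error only. Control replicate 1 stood apart: its log2 CPM correlated across genes at 0.913 to 0.934 with the other libraries, which correlated at 0.959 to 0.987 with one another (genes are not independent replicates). The 7 Leydig markers summed to 2039 CPM in it and to 3.97 to 7.86 CPM in the others, where Hsd3b1, Cyp17a1 and Lhcgr had no count and Cyp11a1 reached at most 0.144 CPM. These named markers of the labelled cell type were thus at or near 0 in 5 of the 6 libraries. Star and Insl3 were low but present there, at 2.52 to 4.54 CPM and 0.418 to 2.91 CPM. In control replicate 1 they were at 497 and 25.8 CPM. Each result is therefore given for all 6 libraries and for the 5 without control replicate 1. Tnfaip3 itself, the check of the labels, was at 30.9, 11.9 and 15.2 CPM in the controls, in replicate order, and at 41.0, 33.7 and 43.6 CPM under A20 overexpression. The log2 fold change of Tnfaip3 was 1.08 ± 0.30 (SE) in all 6 libraries (edgeR, adjusted p = 0.331) and 1.51 ± 0.19 (SE) in the 5 (edgeR, adjusted p = 0.000256). A transgene is counted on this gene only as far as it carries mouse sequence.

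TM3 cells carried RNA of several TNF receptors and of few of their ligands. Levels of different genes are compared on the deposited FPKM scale, which divides by gene length. Of the 27 receptors, 11 had a mean of at least 1 FPKM over the 6 libraries and 7 a mean of at least 10 FPKM. Of the 16 ligands, 3 had at least 1 FPKM and 0 had at least 10 FPKM. No count in any library was found for 10 genes, the ligands Tnf, Fasl, Cd70, Tnfsf4, Tnfsf8 and Tnfsf14 and the receptors Edar, Ngfr, Tnfrsf11b and Tnfrsf17. Over the 6 libraries together, 0 counts allow up to 0.0329 CPM. A further 5 genes had 1 to 5 counts in all: Tnfrsf8, Tnfrsf26, Tnfsf10, Cd40 and Tnfrsf13b.

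**Figure D1:**
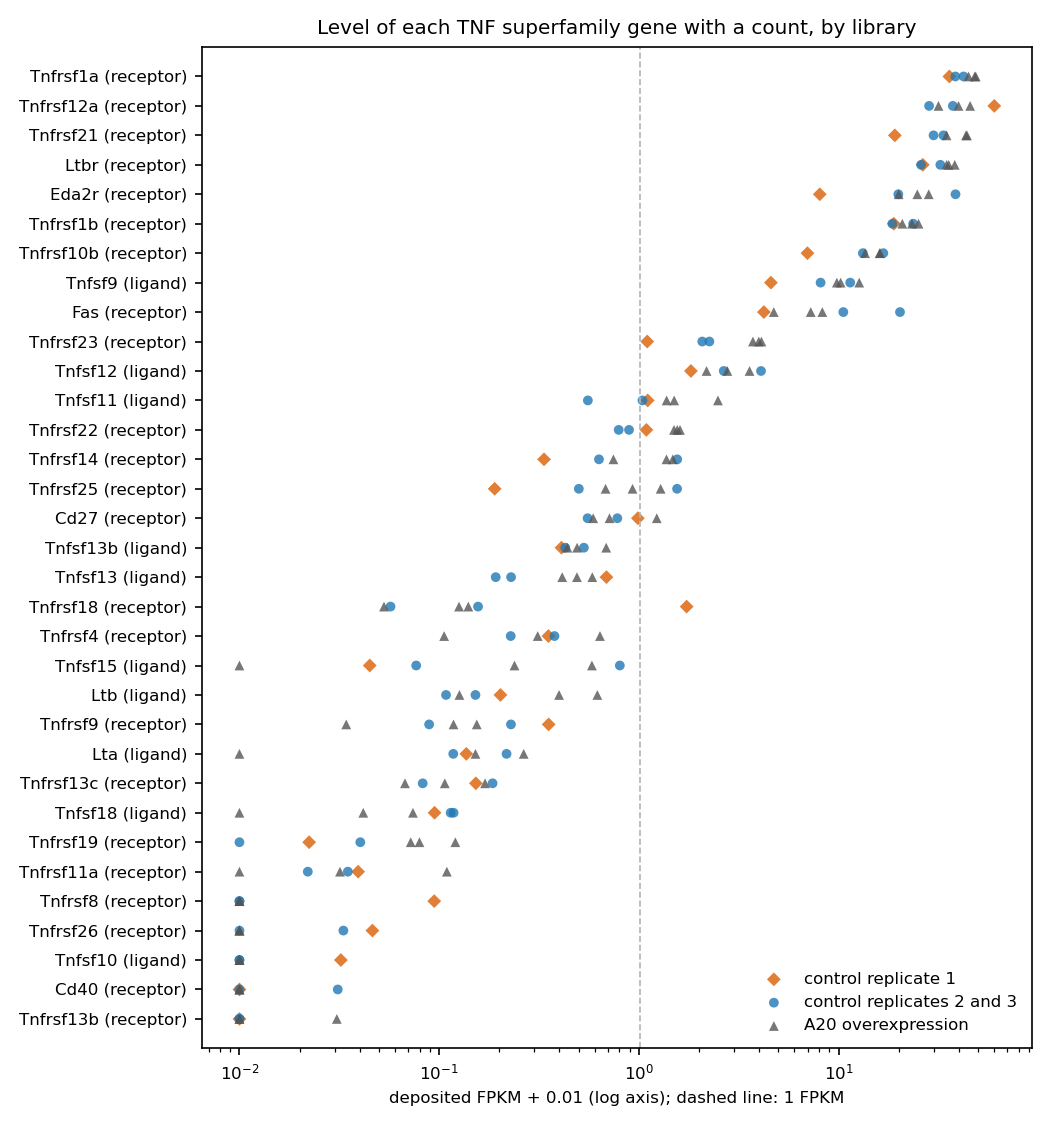
Deposited FPKM plus 0.01 on a log axis for the 33 TNF superfamily genes with a count, ordered by their mean, 1 point per library. Receptors fill the top of the plot, from Tnfrsf1a at a mean of 43.0 FPKM downwards, and Tnfsf9 at 9.48 FPKM is the highest ligand.

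Tnfrsf1a, which encodes TNF receptor 1, the death domain receptor for TNF, was the most abundant member at a mean of 43.0 FPKM (SD 5.15 over the 6 libraries, range 35.9 to 48.7). Tnfrsf12a, which encodes Fn14, the receptor for TWEAK, followed at 40.5 FPKM (range 28.4 to 60.2). Tnfrsf21, which encodes the death receptor DR6, had 34.1 FPKM (range 19.1 to 44.0), and Ltbr, the lymphotoxin beta receptor, had 32.2 FPKM (range 25.9 to 38.2). The 4 ranges overlapped, but within each of the 6 libraries Tnfrsf1a was above both Tnfrsf21 and Ltbr. Tnfrsf12a was below Tnfrsf1a in 5 of the 6 and above it in control replicate 1. Eda2r, the receptor for the A2 form of ectodysplasin, had 23.3 FPKM (range 8.05 to 38.5). Tnfrsf1b, TNF receptor 2, had 21.7 FPKM (range 18.6 to 25.2) and Tnfrsf10b, the TRAIL death receptor, 13.8 FPKM (range 6.98 to 16.8). Fas had 9.23 FPKM (range 4.22 to 20.3), below Tnfrsf10b in 5 of the 6 libraries and above it in control replicate 2. Below these lay the decoy TRAIL receptors Tnfrsf23 (2.87 FPKM) and Tnfrsf22 (1.23 FPKM), and Tnfrsf14, the receptor HVEM, at 1.01 FPKM.

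Among the ligands, Tnfsf9, the 4-1BB ligand, had a mean of 9.48 FPKM (range 4.58 to 12.7). Tnfsf12, which encodes TWEAK, had 2.84 FPKM (range 1.81 to 4.08) and Tnfsf11, which encodes the osteoclast factor RANKL, 1.34 FPKM (range 0.546 to 2.48). The B cell factors Tnfsf13b (BAFF) and Tnfsf13 (APRIL) were at 0.487 and 0.423 FPKM. The remaining members with more than 5 counts were 8 receptors (Tnfrsf25, Cd27, Tnfrsf18, Tnfrsf4, Tnfrsf9, Tnfrsf13c, Tnfrsf19 and Tnfrsf11a) and 4 ligands (Tnfsf15, Ltb, Lta and Tnfsf18), with means from 0.0312 FPKM for Tnfrsf11a to 0.847 FPKM for Tnfrsf25. Exons of Tnfsf12 and Tnfsf13 overlap the read-through gene Tnfsfm13 on the same strand, over 48.3% and 60.0% of their exon bases, so reads can be split among the 3; Tnfsfm13 had 2 to 16 counts per library. Exons of Tnfsf9 share 14.9% of their bases with the antisense gene Gm11110, which had 75 to 114 counts per library.

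Of 27 ligand and receptor pairs known from textbooks, 1 had both partners at a mean of at least 1 FPKM, TWEAK with Fn14. In 13 pairs the receptor reached 1 FPKM, and in 5 of these the ligand had no count in any library. Those 5 pairs were TNF with each of its receptors, Fas ligand with Fas, and Tnfsf14 (LIGHT) with Ltbr and with Tnfrsf14. The converse held for Tnfsf9, whose receptor Tnfrsf9 averaged 0.153 FPKM, and for Tnfsf11, whose receptor Tnfrsf11a averaged 0.0312 FPKM. The cultures contained serum, and RNA does not report ligands supplied from outside.

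The comparison of A20 overexpression with control asked which of these genes differ in RNA level between the groups. Of the 43 genes, 19 passed the filter on low counts, 13 receptors and 6 ligands, and the other 24 were not tested. With all 6 libraries, 0 of the 19 passed edgeR's quasi-likelihood test after Benjamini-Hochberg adjustment over all 13350 genes, where 0.0150% of all genes passed, 0.00749% higher and 0.00749% lower. An unadjusted p under 0.05 was found for 4 of the 19, all higher in A20 overexpression, against 4.19% of all genes higher and 5.86% lower at that level. DESeq2 called 1 member, Tnfrsf23 (adjusted p = 0.0487), and limma-voom 0 (4 at an unadjusted p under 0.05). Without control replicate 1, edgeR called 2 of the 19, against 4.60% of all 13658 genes: 1 member higher, Tnfrsf23, and 1 lower, Fas, against 1.92% of all genes higher and 2.68% lower. The remaining 17 did not pass. At an unadjusted p under 0.05 there were 4 higher and 1 lower, against 10.4% and 11.2% of all genes.

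Fas encodes a death domain receptor that starts apoptosis when it binds Fas ligand. The gene (ENSMUSG00000024778) lies on chromosome 19 of GRCm38, 34290659 to 34327770, plus strand. Fas was at 8.47, 34.2 and 19.1 CPM in control replicates 1, 2 and 3, against 13.1, 14.6 and 8.54 CPM under A20 overexpression. Control replicates 2 and 3 lay above each A20-overexpressing library, and control replicate 1 lay just below the lowest of them. In the 5 libraries Fas fell 2.28-fold in edgeR (adjusted p = 0.0244), a log2 fold change of -1.19 ± 0.27 (SE). Control replicates 2 and 3 averaged 26.7 ± 10.7 CPM (SD, n = 2), and A20 overexpression averaged 12.1 ± 3.14 CPM (SD, n = 3). With all 6 the log2 fold change was -0.79 ± 0.49 (SE, adjusted p = 0.624), and the groups overlapped. The 5-library call did not hold in edgeR without A20-overexpressing replicate 1 (adjusted p = 0.0892), 2 (0.0613) or 3 (0.0798), nor without control replicate 2 (0.208), where the log2 fold change was -0.65. It held without control replicate 3 (adjusted p = 0.000117), and limma-trend on FPKM did not call it (adjusted p = 0.271 and 0.295 with pseudocounts of 0.1 and 1).

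Tnfrsf23 encodes a decoy receptor for TRAIL, found in the mouse, that has no death domain. It lies on chromosome 7, 143665809 to 143685872, minus strand (ENSMUSG00000037613). Its level was 4.82, 7.67 and 8.96 CPM in the controls, in replicate order, and 15.8, 14.4 and 16.3 CPM under A20 overexpression. Every A20-overexpressing library lay above every control. In the 5 libraries Tnfrsf23 rose 1.82-fold in edgeR (adjusted p = 0.0341), a log2 fold change of 0.87 ± 0.22 (SE). Control replicates 2 and 3 averaged 8.31 ± 0.913 CPM (SD, n = 2), and A20 overexpression averaged 15.5 ± 1.00 CPM (SD, n = 3). With all 6 libraries the control mean was 7.15 CPM ± 2.12 (SD, n = 3), and the log2 fold change of 1.13 ± 0.31 (SE) had an adjusted p of 0.331 (unadjusted p = 0.0058). The 5-library call did not hold in edgeR without A20-overexpressing replicate 1 (adjusted p = 0.128), 2 (0.0854) or 3 (0.154), or without control replicate 2 (0.0945), nor in limma-trend on FPKM (0.173 and 0.192 with pseudocounts of 0.1 and 1).

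Tnfrsf22, the neighbouring decoy receptor for TRAIL on chromosome 7 (143634806 to 143649661, minus strand), was at 5.08, 3.49 and 3.32 CPM in the controls and at 6.56, 6.13 and 6.76 CPM in A20 overexpression. The groups did not overlap, but the gene did not pass edgeR: its log2 fold change was 0.75 ± 0.32 (SE, adjusted p = 0.49) in the 6 libraries and 0.89 ± 0.31 (SE, adjusted p = 0.102) in the 5. The transcripts of Tnfrsf22 and Tnfrsf23 are alike: 26.6% of the 31-base words of Tnfrsf23 also occur in Tnfrsf22, so reads can be split between them. Counted as 1 feature, a choice made after the data were seen, they stood at 9.90, 11.2 and 12.3 CPM in the controls and at 22.4, 20.5 and 23.1 CPM in A20 overexpression. Their joint log2 fold change was 0.87 in the 5 libraries (adjusted p = 0.0178 in edgeR) and 1.00 in the 6 (adjusted p = 0.229). No fit of this joint feature with a library left out or with another tool is given. The 5-library call of Tnfrsf23 alone did not hold without any single A20-overexpressing library. Tnfrsf26, the remaining gene of this cluster, had 3 counts, all in control libraries. TRAIL itself, Tnfsf10, had 2 counts, both in control replicate 1.

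**Figure D2:**
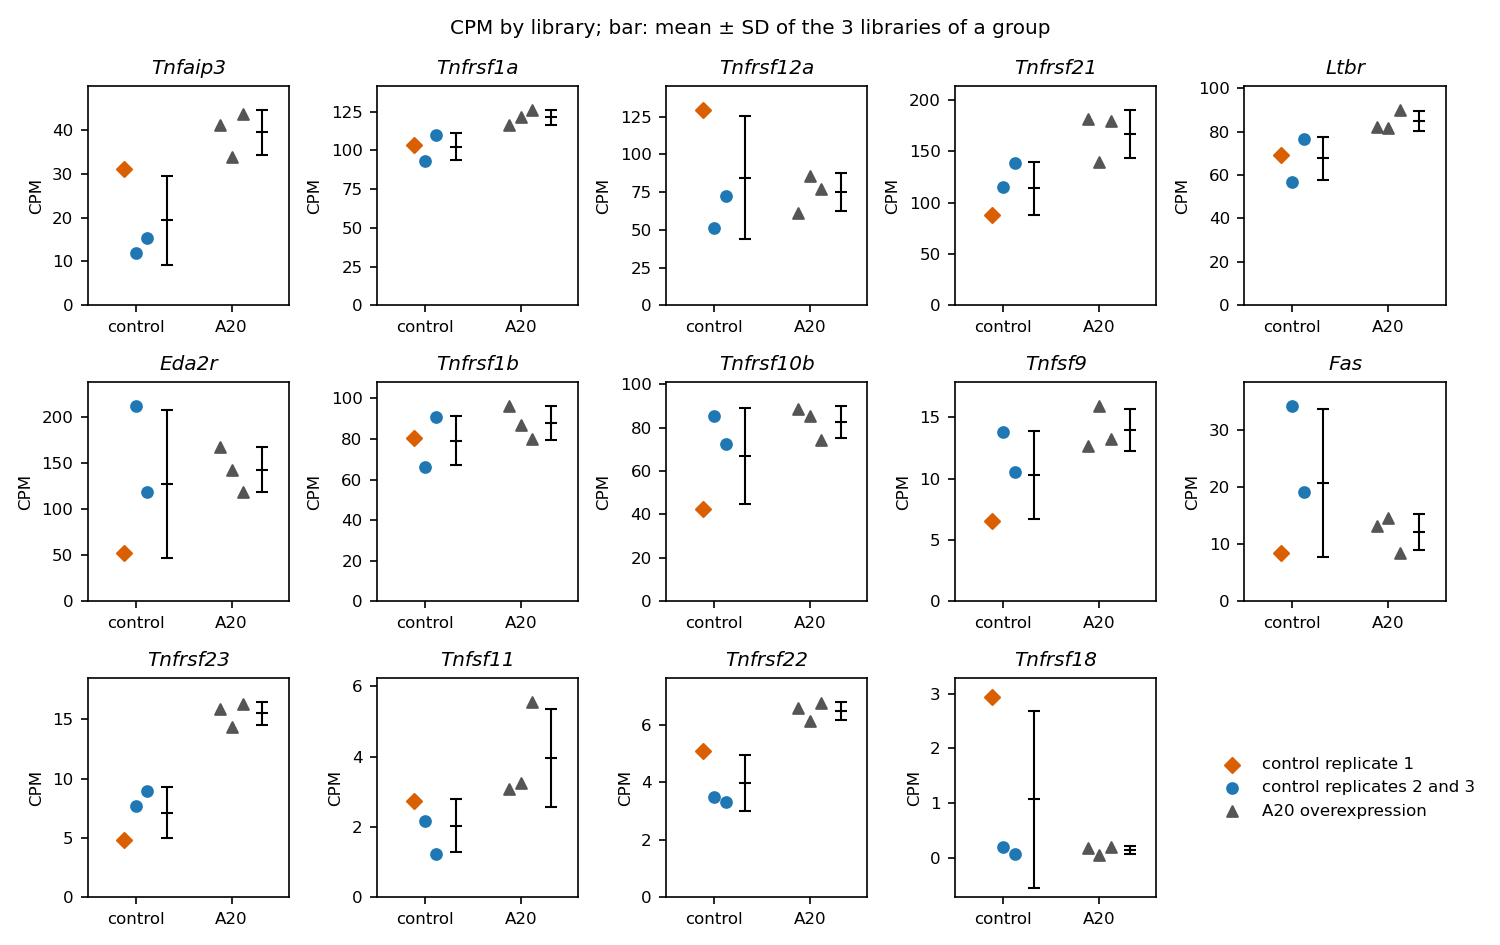
CPM by library for Tnfaip3 and the 13 TNF superfamily genes described by library, with the mean ± SD of the 3 libraries of a group beside the points. The 3 A20-overexpressing libraries lie above all controls for Tnfrsf23 (14.4 to 16.3 against 4.82 to 8.96 CPM), while for Fas control replicate 1 lies at 8.47 CPM, apart from the other controls.

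The sequence upstream of the start of both genes that passed the test is shown because transcription starts there; it comes from RefSeq on GRCm38.p6, 250 bases each, 5′ to 3′ on the strand of the gene. Capitals mark GGGCGG or its reverse complement, the core of a GC box, a motif chosen after the data were seen and searched on both strands.
Fas, chr19:34290409-34290658, plus strand: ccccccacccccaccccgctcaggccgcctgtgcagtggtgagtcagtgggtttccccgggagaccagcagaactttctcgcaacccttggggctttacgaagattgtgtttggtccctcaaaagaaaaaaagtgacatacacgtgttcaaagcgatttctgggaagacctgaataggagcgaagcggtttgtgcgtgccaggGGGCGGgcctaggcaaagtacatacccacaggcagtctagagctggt
Tnfrsf23, chr7:143685876-143686125, minus strand: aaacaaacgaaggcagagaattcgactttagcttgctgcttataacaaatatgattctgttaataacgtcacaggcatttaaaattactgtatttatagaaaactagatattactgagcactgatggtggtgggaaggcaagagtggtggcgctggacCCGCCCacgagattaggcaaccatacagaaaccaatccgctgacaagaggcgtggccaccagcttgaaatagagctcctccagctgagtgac
The match begins 47 bases before the start in Fas and 92 bases before it in Tnfrsf23. GC content was 56.4% in the Fas window and 44.8% in that of Tnfrsf23, with a median of 52.4% over 32851 such windows, of which 32.7% hold GGGCGG. Counted by gene rather than by window, 17 of the 34 members matched had it in a window (50%). A match of letters describes the sequence and shows no bound factor.

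Among the abundant receptors that did not pass the test, Tnfrsf21 was at 87.6, 115 and 139 CPM in the controls, in replicate order, and at 182, 139 and 179 CPM under A20 overexpression. Its lowest A20-overexpressing library was just above the highest control. The log2 fold change was 0.56 ± 0.22 (SE, unadjusted p = 0.0329, adjusted p = 0.47 in edgeR) in the 6 libraries and 0.36 ± 0.15 (SE, adjusted p = 0.177) in the 5. Ltbr, which signals to the non-canonical NF-kB pathway, was at 69.3, 57.0 and 76.7 CPM in the controls and at 82.3, 81.8 and 90.1 CPM in A20 overexpression, again without overlap. Its log2 fold change was 0.35 ± 0.15 (SE, adjusted p = 0.492 in edgeR) with 6 and 0.31 ± 0.15 (SE, adjusted p = 0.234) with 5 libraries. Tnfrsf1a was at 104, 93.3 and 110.3 CPM in the controls and 117, 122 and 126 CPM in A20 overexpression, a small shift without overlap, with a log2 fold change of 0.27 ± 0.14 (SE, adjusted p = 0.55 in edgeR; 95% interval -0.05 to 0.60). Without control replicate 1 it was 0.22 ± 0.14 (SE, adjusted p = 0.364).

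The receptors Tnfrsf1b, Tnfrsf10b, Tnfrsf12a and Eda2r overlapped between the groups. Tnfrsf1b was at 80.5, 66.4 and 90.9 CPM in the controls and at 96.5, 86.9 and 79.9 CPM in A20 overexpression, and the 95% interval of its log2 fold change in the 6 libraries was -0.19 to 0.55. Tnfrsf10b was at 42.4, 85.5 and 72.6 CPM in the controls and at 88.4, 85.4 and 74.2 CPM in A20 overexpression. Control replicate 1 was the low library, and the log2 fold change was 0.31 ± 0.28 (SE) with it and 0.03 ± 0.15 (SE) without it (adjusted p = 0.747 and 0.939 in edgeR). Tnfrsf12a was at 129.7, 51.4 and 72.7 CPM in the controls and at 61.5, 86.0 and 77.3 CPM in A20 overexpression. Here control replicate 1 was the high library, and the direction turned from -0.11 ± 0.28 (SE) with it to 0.25 ± 0.17 (SE) without it (adjusted p = 0.917 and 0.436 in edgeR). Eda2r varied widely among the controls, at 52.8, 212 and 118 CPM, against 168, 143 and 118 CPM in A20 overexpression. Its log2 fold change was 0.14 ± 0.45 (SE) with 6 and -0.26 ± 0.25 (SE) with 5 libraries (adjusted p = 0.938 and 0.601 in edgeR).

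Of the ligands, 0 of the 6 tested passed in either set of libraries. Of all genes, 0.0150% passed with 6 libraries and 4.60% with 5, so 0 is a usual count for 6 genes. In limma-voom and DESeq2 the members called in the 5 libraries were again Fas and Tnfrsf23. At an unadjusted p under 0.05 edgeR had 0 ligands with 6 libraries and 1, Tnfsf11, with 5. The shares of all genes at that level were 4.19% higher and 5.86% lower with 6 libraries, and 10.4% and 11.2% with 5. Tnfsf11 was at 2.74, 2.16 and 1.23 CPM in the controls, in replicate order, and at 3.07, 3.26 and 5.56 CPM in A20 overexpression. Every A20-overexpressing library lay above every control, replicate 3 well above the rest. The log2 fold change was 0.99 ± 0.45 (SE, adjusted p = 0.517 in edgeR) with 6 and 1.17 ± 0.44 (SE, adjusted p = 0.131) with 5 libraries. Tnfsf9 was at 6.58, 13.8 and 10.5 CPM in the controls and 12.7, 16.0 and 13.2 CPM in A20 overexpression. It overlapped between the groups, with a log2 fold change of 0.44 ± 0.34 (SE, adjusted p = 0.688 in edgeR) that was 0.16 ± 0.23 (SE, adjusted p = 0.742) in the 5 libraries. The other ligands tested, Tnfsf12, Tnfsf13, Tnfsf13b and Tnfsf15, had adjusted p from 0.337 to 0.998 over both fits.

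**Figure D3:**
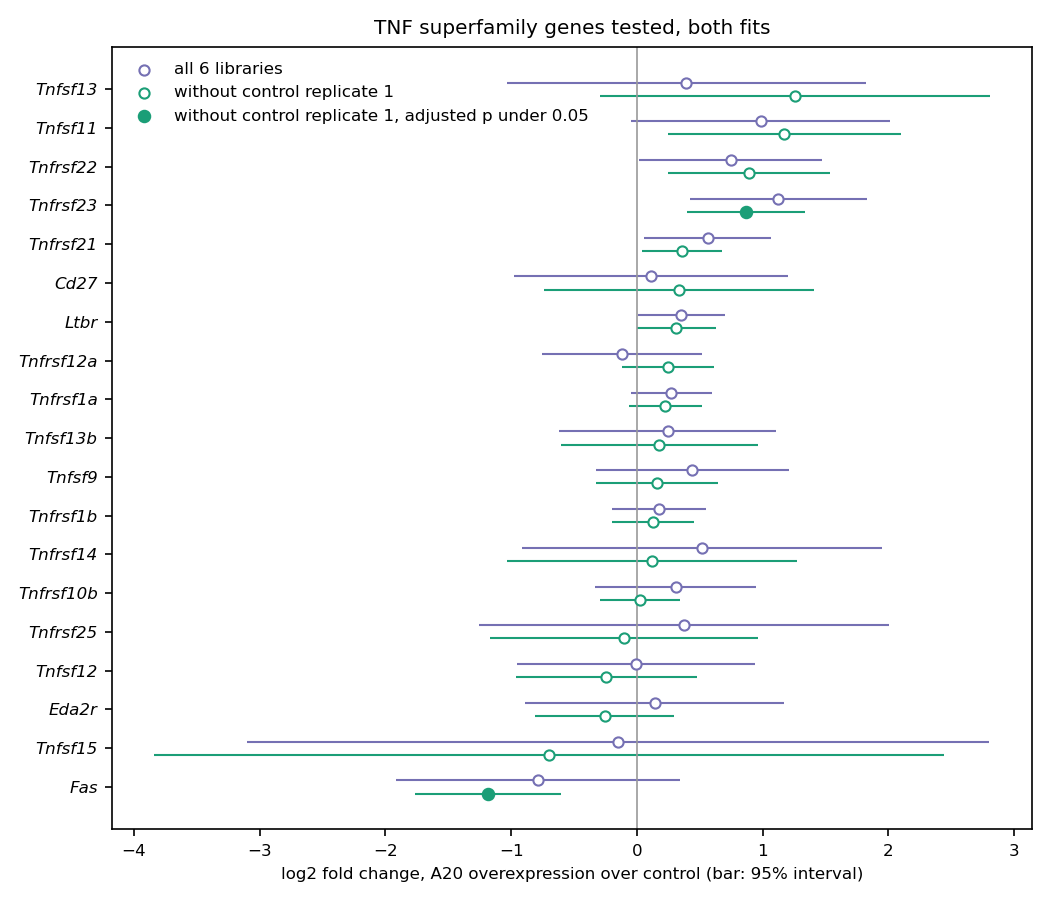
Log2 fold change of A20 overexpression over control for the 19 genes tested, with 95% intervals, for all 6 libraries and for the 5 without control replicate 1; filled points passed the adjusted test. Tnfrsf23 at 0.87 and Fas at -1.19 are the filled points, and the widest intervals belong to Tnfsf15, which had 84 counts in all.

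Across the 19 genes tested, the fitted log2 fold change was above 0 for 15 with all 6 libraries, where 46.0% of all genes tested were above 0, and for 14 with 5 libraries, where 49.7% were. The medians were 0.31 and 0.18, against -0.03 and -0.0028 over all genes tested. The median stayed above 0 under each other scaling, filter and tool and without each single library, between 0.13 and 0.47. In CPM, 6 of the 19 lay without overlap above the controls in the 6 libraries and 0 below, against 7.62% and 9.27% of all genes (16.9% in all). The same numbers, 6 and 0, were found on the FPKM scale. In the 5 libraries 7 lay above and 1, Fas, below, against 20.7% and 17.2% of all genes (37.9% in all). CPM summed over the 43 genes was 611, 757 and 743 in the controls and 861, 814 and 818 in A20 overexpression. These are descriptions of the genes that passed the filter, or of a sum set by the most abundant receptors, and carry no test.

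Control replicate 1 differed from the other libraries in the TNF superfamily as well. Of the 19 genes tested, it lay below all 5 other libraries for 9 (47.4%) and above all for 2 (10.5%), where over all genes tested the shares were 21.7% below and 40.7% above. Tnfrsf25, the death receptor DR3, was at 0.456 CPM in it and at 1.05 to 3.54 CPM in the others, and Tnfrsf14 was at 0.521 CPM against 0.836 to 2.24 CPM. Tnfrsf18, the receptor GITR, was the 1 member at 1 CPM or more in control replicate 1 that lay over 4-fold outside the range of the others. It was at 2.93 CPM in control replicate 1, 14.0 times the highest other library, and at 0.209, 0.0722, 0.177, 0.0639 and 0.199 CPM in control replicates 2 and 3 and the 3 A20-overexpressing libraries. Exons of the antisense gene Gm16008 cover 27.2% of the exon bases of Tnfrsf18. That gene had 56 counts in control replicate 1 and 0 in each other library, and without a stated strand setting its reads and those of Tnfrsf18 cannot be told apart. With 1 library there is no replicate check of these differences.

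**Figure D4:**
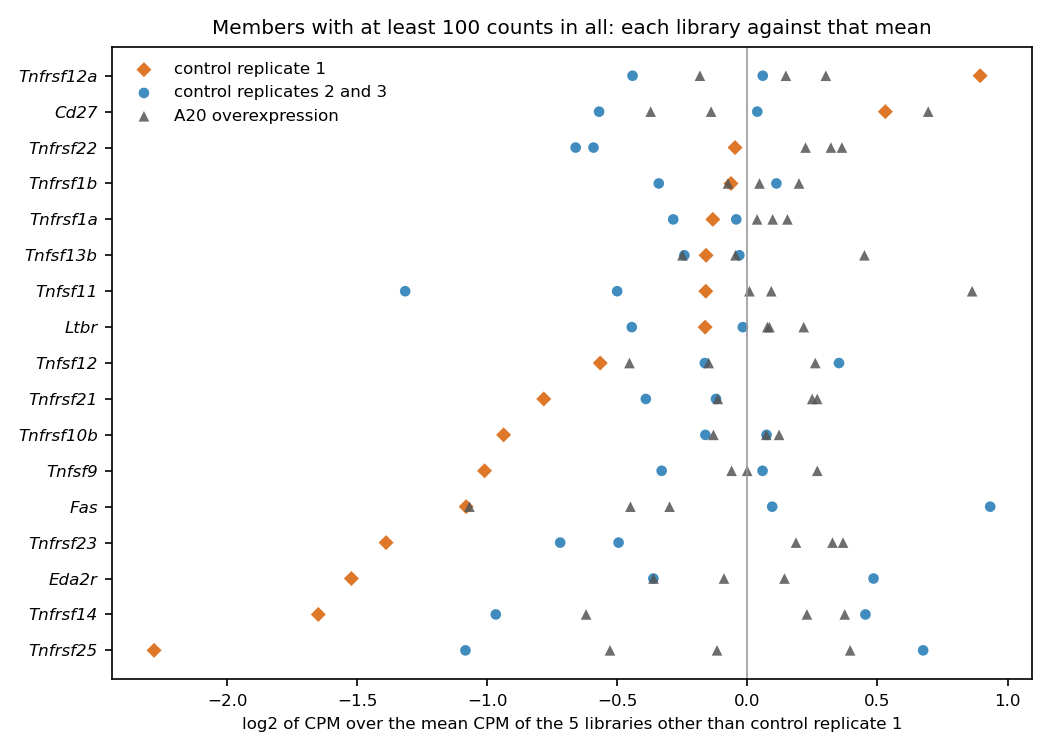
Log2 of the CPM in each library over the mean CPM of the 5 libraries other than control replicate 1, for the 17 genes with at least 100 counts in all. Control replicate 1 lies lowest for 9 genes, from Tnfsf12 down to Tnfrsf25, and highest for Tnfrsf12a.

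Markers of other cell types were read gene by gene, since single abundant genes set their sums. The 7 lymphocyte markers, of which Cd4, Cd8a and Ms4a1 had no count, summed to 0.0591 to 0.662 CPM over the libraries. Of the 5 macrophage markers, Adgre1 and Ptprc had no count, and control replicate 1 lay within the range of the other libraries for Csf1r and Cd14. The list summed to 5.93 CPM in control replicate 1, 32.6 to 34.7 CPM in the other controls and 22.7 to 42.9 CPM in A20 overexpression, a gap carried by Cd68 (3.71 CPM in control replicate 1 against 19.3 to 38.7 CPM). Of the 4 endothelial markers, Cdh5 made up 35.1 of the 36.7 CPM in control replicate 1. Pecam1, with 9 counts there, was also higher in it (0.586 CPM against at most 0.144 CPM). Egfl7 was lower in control replicate 1 (1.04 CPM against 3.05 to 4.47 CPM), and Kdr had no count in it. In the other 5 libraries that list summed to 3.05 to 4.85 CPM.

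The 4 stromal markers did not move in 1 direction. Their sum, 2982 CPM in control replicate 1, 9355 and 11768 CPM in the other controls and 12444 to 13079.8 CPM in A20 overexpression, was set by the collagens Col1a1 and Col1a2. Col1a1 was higher in every A20-overexpressing library but did not pass edgeR (adjusted p = 0.548 with 6 and 0.0803 with 5 libraries), and Col1a2 and Pdgfra overlapped between the groups. Dcn, which encodes the matrix proteoglycan decorin, was at 21.4, 145 and 231 CPM in the controls and at 52.2, 45.0 and 44.3 CPM in A20 overexpression. Dcn fell in the 5 libraries (log2 fold change -2.02 ± 0.17, SE; edgeR, adjusted p = 2.58e-06), and with all 6 the groups overlapped (adjusted p = 0.498). The 5 Sertoli cell markers summed to 303 CPM in control replicate 1, 139.9 to 183 CPM in the other controls and 132 to 148 CPM in A20 overexpression. Outside control replicate 1, Wt1 set that sum at 117 to 152 CPM and overlapped between the groups, and Sox9 had no count. Clu, which encodes the secreted chaperone clusterin, was at 221, 22.9 and 31.1 CPM in the controls and at 9.10, 13.3 and 11.1 CPM in A20 overexpression, without overlap. Clu fell in the 5 libraries, as Fas did (log2 fold change -1.30 ± 0.21, SE; edgeR, adjusted p = 0.00288), and with all 6 it did not pass (adjusted p = 0.298). The 3 germ cell markers, of which Dazl had no count, summed to 9.38 CPM in control replicate 1, 6.06 to 7.95 CPM in the other controls and 7.95 to 12.2 CPM in A20 overexpression. Sycp1, at 4.81 to 8.28 CPM over the libraries, overlapped between the groups. Ddx4 was at 3.97, 1.25 and 0.433 CPM in the controls and at 3.90, 1.92 and 2.25 CPM in A20 overexpression. It overlapped only through control replicate 1 and did not pass edgeR (adjusted p = 0.816 with 6 and 0.105 with 5 libraries). The part of the cells these markers stand for in the differences of TNF superfamily genes, Fas and Tnfrsf23 included, was not tested. In bulk RNA, fewer cells of a type and less RNA per cell cannot be told apart.

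Around the receptors, a list of 54 genes held the adaptors, kinases, NF-kB proteins, deubiquitinases, death effectors and shedding enzymes of TNF signalling, with 4 genes of the family that the naming rule leaves out (the ligands Eda and Cd40lg, the receptor Relt and the adaptor Edaradd). Of the 54, 50 passed the filter, 1 of these 4 (Relt) among them. With all 6 libraries 0 passed edgeR. At an unadjusted p under 0.05 there were 2 higher and 6 lower, against 4.19% and 5.86% of all genes. DESeq2 called 2, Rbck1 and Birc2, and limma-voom 0 (5 at an unadjusted p under 0.05). Without control replicate 1, edgeR called 2 higher and 1 lower, against 1.92% of all genes higher and 2.68% lower (4.60% in either direction). Leaving out Tnfaip3, the gene that was overexpressed, 2 of 49 were called, 1 higher and 1 lower, close to the share of all genes. Those higher were Tnfaip3 and Rbck1, a subunit of the linear ubiquitin ligase, and the 1 lower was Birc2, the ubiquitin ligase cIAP1 that TRAF2 carries to TNF receptors. The median log2 fold change of the list was -0.04 with 6 and -0.06 with 5 libraries, close to that of all genes.

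Rbck1 was at 110.1, 84.5 and 104 CPM in the controls, in replicate order, and at 156, 156 and 164 CPM in A20 overexpression. In the 5 libraries it rose 1.65-fold (log2 fold change 0.72 ± 0.14, SE; adjusted p = 0.00939 in edgeR), and with all 6 the log2 fold change was 0.70 ± 0.14 (SE, adjusted p = 0.205). Birc2 was at 109, 108 and 97.2 CPM in the controls and at 74.9, 64.3 and 59.5 CPM in A20 overexpression. In the 5 libraries it fell 1.59-fold (log2 fold change -0.67 ± 0.15, SE; adjusted p = 0.0168 in edgeR), and with all 6 the log2 fold change was -0.63 ± 0.16 (SE, adjusted p = 0.274). For both genes control replicate 1 lay on the side of the other controls. Without A20-overexpressing replicate 1, 2 or 3 the 5-library adjusted p in edgeR rose to 0.0514, 0.0505 and 0.0631 for Rbck1 and to 0.0517, 0.0872 and 0.13 for Birc2, and without control replicate 2 it was 0.051 for Birc2. Of the other groups in the list, 0 of 9 kinases and 0 of 8 NF-kB subunits and inhibitors passed in the 5 libraries. The count was also 0 for the 8 death effectors and the 6 shedding and trafficking genes. Of all genes 4.60% passed there, so 0 is a usual count for groups this small.

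Of the 4 family genes in that list, Eda, which encodes ectodysplasin, the ligand of Eda2r and Edar, was at 8.34 CPM in control replicate 1 and had no count in the other 5 libraries. Relt, a receptor of the family, was at 4.43 to 8.16 CPM and did not pass (log2 fold change 0.13 with 6 and -0.12 with 5 libraries, adjusted p = 0.924 and 0.845 in edgeR). Cd40lg, the ligand of CD40, and Edaradd, the adaptor of Edar, had no count.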

How the data were processed

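RNA-seq counts per gene for 54532 genes in 6 libraries were used as deposited by the authors. The build named in the submitters' processing notes is GRCm38 (mm10); aligner, counter and strand setting are not given in the sources used here. The deposited FPKM values equal the count over gene length and 1 library size per library, scaled by the authors. They set levels between genes and served in alternatives. CPM used total counts. Groups were compared in R 4.3.3 by the quasi-likelihood test of edgeR 4.0.16 (TMM factors, filterByExpr, robust dispersions), on 6 libraries and on 5, with Benjamini-Hochberg adjustment across every gene that passed the filter and a threshold of 0.05. The SE is the log2 fold change over the square root of F. Procedures were tested on simulated data. Members, lists and the 5-library fit were chosen with earlier results of these data known. Values by library are given for members past the adjusted or unadjusted 0.05, for the 10 of highest mean FPKM and for those over 4-fold outside the other libraries in control replicate 1 and at 1 CPM or more there. Of the pathway list, those past the adjusted test are named; Eda, Relt, Cd40lg, Edaradd and single marker genes were named after their values were seen. Alternatives used DESeq2 1.42.0 and limma 3.58.1. Promoters are from RefSeq (34 of 43 genes matched), exon overlaps and transcripts from GENCODE M21.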

Additional observations from a re-analysis of the deposited data

How the results depend on the processing

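With 6 libraries, 2 genes were called in all. That number was 0 with library size alone, limma-voom and limma-trend on log2(FPKM + 1) or log2(FPKM + 0.1) (1270, 1228, 1855 and 1883 at an unadjusted p under 0.05), 23 without a filter and 183 in DESeq2, and 0 to 628 when 1 library was left out, 628 without control replicate 1. DESeq2 called 1 member and 2 pathway genes where edgeR called 0 of each, and leaving out a library gave 0 to 2 members and 0 to 3 pathway genes. With 5 libraries, 628 genes, 2 members and 3 pathway genes were called. Both limma-trend fits on FPKM gave 0 of each (3281 and 3277 genes, 7 and 6 members, 6 and 7 pathway genes at an unadjusted p under 0.05, with pseudocounts of 1 and 0.1), and without a filter 1173 genes and 5 pathway genes were called. Leaving out a library gave 142 to 2423 genes, 0 to 5 members and 1 to 8 pathway genes; where 1 control is left, it is assumed to vary like the A20-overexpressing libraries, and the 5 members without control replicate 3 were Eda2r, Fas, Ltbr, Tnfrsf21 and Tnfrsf23. The log2 fold change of Tnfaip3 was 0.88 to 1.51 with 1 of the 6 left out and 1.38 to 1.65 with 1 of the 5, and 1.14 and 1.46 with pseudocounts of 1 and 0.1 on 5 libraries, past the threshold in neither limma-trend fit (adjusted p = 0.134 and 0.11). Uncalled members changed sign when 1 library was left out: Eda2r ran from -0.26 (without control replicate 1; -0.0053 without A20-overexpressing replicate 1) to 0.80 with 6 libraries and from -0.65 to 0.29 (without control replicate 2) with 5, Tnfrsf12a from -0.33 to 0.25 (6, without control replicate 1), Tnfrsf1b from -0.038 (5, without control replicate 2) to 0.32, Tnfsf9 from -0.058 (5, without control replicate 3) to 0.42, and Tnfrsf10b from -0.12 (5, without control replicate 3; -0.016 and -0.0054 without A20-overexpressing replicate 1 or 2) to 0.20. The cause was not tested. Replicate numbers are shared between the groups. Deviations from the group means of same-numbered libraries correlated at 0.0261, 0.114 and -0.0394. Those of differently numbered libraries correlated at -0.185 to 0.161. With 3 libraries in a group, these values cannot show whether same-numbered libraries were paired. With a replicate block the 5-library fit called 797 genes, 2 members and 5 pathway genes, and Tnfrsf10b had -0.016; the 6-library fit called 2, 0 and 0. Depth limits the 24 members not tested and those of a few counts.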

Other observations

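The letters of the NF-kB motif were looked for in the exact form known from the immunoglobulin kappa enhancer. The search covered both strands of the 250 bases before the RefSeq start, for the 34 members with a RefSeq window. Counted by gene, the exact letters were in a window of 1 member, Ltb (lymphotoxin beta), and they were in 0.14% of all 32851 windows. A more open form leaves a pair of inner bases free and includes the exact form. It was in a window of 3 members, Ltb, Tnfrsf9 and Tnfrsf25, and in 1.41% of all windows. A count by gene and a share by window cannot be set against each other. A match of letters shows no bound factor. The stretch of Ltb is shown because it alone holds the exact letters, in capitals, here as their reverse complement. The RefSeq start of Ltb lies downstream of the start of the counted gene, 35194439, which falls within the stretch shown.
Ltb, GRCm38.p6, chr17:35194395-35194454, plus strand: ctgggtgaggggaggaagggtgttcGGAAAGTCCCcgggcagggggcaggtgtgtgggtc
Ltb was at 0.326, 0.139 and 0.217 CPM in control replicates 1, 2 and 3 and at 0.177, 0.575 and 0.927 CPM in A20 overexpression, 36 counts in all. It was below the filter and was not tested, and 3 of these values lie at or under the level of 3 counts.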
